A study of Mus musculus with 16 samples.

Results

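The intestinal stem cell markers described here are the 7 mouse genes Lgr5, Ascl2, Olfm4, Mex3a, Tnfrsf19, Cd44 and Ephb3. They are a list of names, taken with every probe that the array annotation gives to them, and no threshold on measured values enters the rule. This gave 14 of the 25697 probes on the bead array, and 7 of the 11230 genes tested. All 14 probes passed the filter on dim probes, which asked for detection on at least 2 of 14 arrays. Cd44 has 6 probes, Mex3a and Tnfrsf19 have 2 each, and the other genes have 1 each. A gene's value below is that of its brightest probe.

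Intestinal stem cells sit at the base of the crypts and renew the epithelial lining. Wnt ligands and R-spondins maintain them: Wnt signals through Frizzled receptors and LRP co-receptors, the destruction complex that contains APC stops degrading beta-catenin, and beta-catenin with TCF factors switches on target genes. Apcmin mice carry one truncated Apc allele, and their adenomas lack the working copy. LGR5 is the R-spondin receptor that marks crypt base stem cells, ASCL2 is their basic helix-loop-helix transcription factor, and TNFRSF19 (TROY) is a tumour necrosis factor receptor family member of the same cells. All 3 are Wnt targets. MEX3A is an RNA-binding protein of a slowly cycling stem cell subset, and OLFM4 is a secreted glycoprotein of stem cells. CD44 is a hyaluronan receptor and EPHB3 is a receptor for ephrins that positions cells along the crypt. Both are Wnt targets that are also made outside the stem cells.

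RNA came from gut tumours and normal mucosa of mice on a mixed B6, 129, Balbc and CD1 background. The colon groups were tumours of iLIN28B; Apcmin/+ mice (called iLIN28B Apcmin below, 4 arrays), tumours of Apcmin/+ mice (Apcmin, 2 arrays) and wt mucosa (2 arrays). The small intestinal groups were tumours of iLIN28B; Apcmin/+ mice, of Apcmin/+ mice and of iLIN28B mice, and wt mucosa, with 2 arrays each. Titles of the small intestinal samples carry a D, except that 1 iLIN28B tumour carries Jej, and replicate 2 of the iLIN28B Apcmin tumours is titled D Tum Muc, so it may hold mucosa beside tumour. The labels spell out none of these. The labels give doxycycline, the usual inducer of tetracycline-controlled transgenes, from an age of 6 to 7 weeks for every group, wt included. iLIN28B stands for overexpression of LIN28B, an RNA-binding protein that blocks maturation of let-7 microRNAs. The iLIN28B mice without Apcmin were 8 months old and all others 3 months old. The tissue that drives the transgene is not given in the sources used here, and the level of LIN28B was not analysed here.

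Arrays labelled as replicates often share the number in their titles. The 3 usable iLIN28B Apcmin colon tumours all carry 2135, both iLIN28B small intestinal tumours carry 1737, and a wt colon and a wt small intestinal array carry 1032. The labels do not say what this number stands for or that replicates are separate mice, so p-values measure only the spread between these samples. On 14 arrays between 48.3% and 56.5% of probes were detected at p under 0.05. The other arrays, iLIN28B Apcmin colon tumour replicate 4 and wt small intestinal mucosa replicate 1, had 12.0% and 5.28% of probes detected and were left out. On these arrays the brightest probe of each of the 7 genes had a deposited signal between 10.7 and 39.3 and was not detected at p under 0.05. Dimmer probes of Cd44 (ILMN_2640330, signal 129) and Mex3a (ILMN_3151736, signal 41.8) were detected on iLIN28B Apcmin colon tumour replicate 4. Wt small intestinal mucosa therefore rests on 1 array. With all 16 arrays in the fit and low signals kept, none of the 14 member results called below passed. Tissue labels were checked on the 14 arrays. Cdh1, an epithelial adhesion gene, was detected on every one. Gata4, a transcription factor of the proximal small intestine, was detected on each small intestinal array and on no colon array. Apoa4, a small intestinal enterocyte gene, split the organs in the same way, but other markers did not. The colonocyte genes Car4 and Aqp8 were detected on every array of both organs. Slc26a3, also a colonocyte gene, was detected only in wt colon mucosa, and the enterocyte gene Sis was detected there too.

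**Figure D1:**
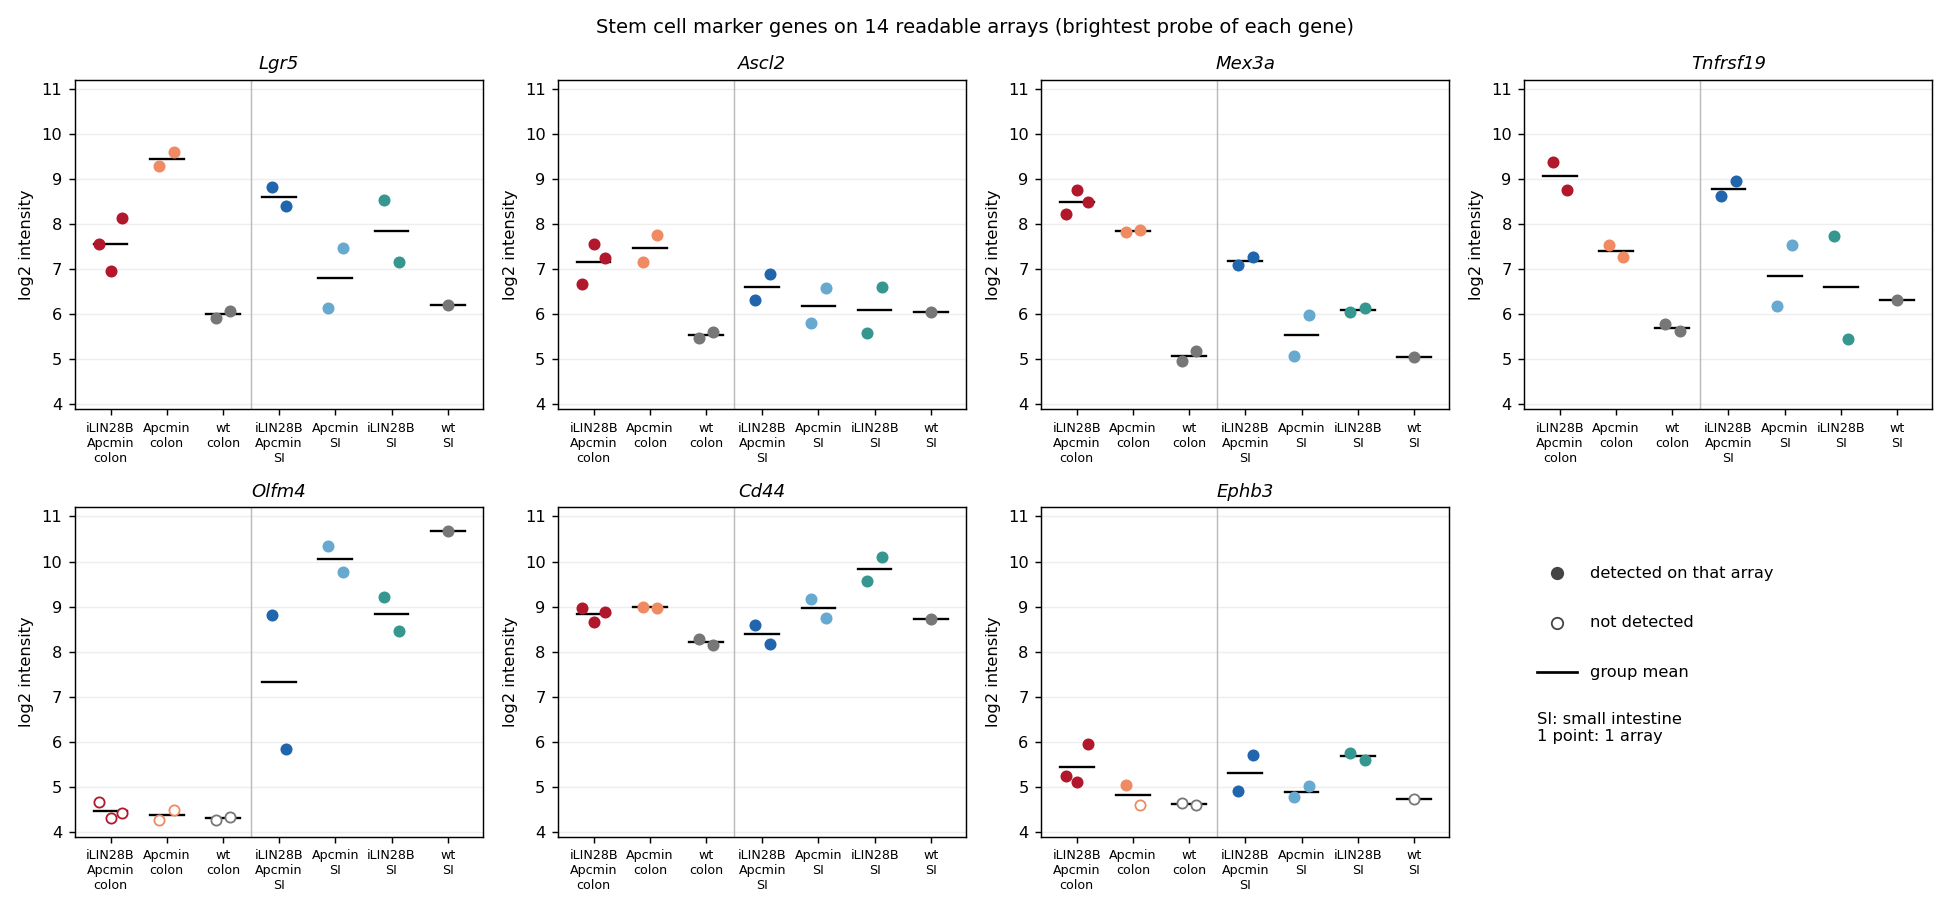
Each panel plots 1 of the 7 genes, with the log2 normalised intensity of its brightest probe on the vertical axis and the 7 groups on the horizontal axis. Points are arrays (open where the probe was not detected) and bars are group means. Mex3a lies highest in the colon tumours, Olfm4 is undetected on every colon array, and Lgr5 lies highest in Apcmin colon tumours.

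Values per array are log2 intensities after background correction and quantile normalisation. On this scale the undetected member probes lay between 4.27 and 4.75. Each gene can be followed across groups, but levels of different genes are not set against each other, since probes differ in brightness. Groups of so few arrays often do not overlap. Apcmin colon tumours lay wholly above wt colon mucosa for 35% of all genes. The iLIN28B Apcmin tumours lay wholly above Apcmin tumours for 17% of all genes in colon and 27.2% in small intestine. In bulk samples fewer cells of a type and less RNA per cell cannot be told apart.

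Lgr5 (ILMN_2650008, a gene at chr10:115450314-115587780 on GRCm38.p6) had log2 intensities of 7.56, 6.95 and 8.14 in iLIN28B Apcmin colon tumours, 9.28 and 9.59 in Apcmin colon tumours, and 5.93 and 6.07 in wt colon mucosa. Small intestinal values were 8.82 and 8.39 in iLIN28B Apcmin tumours, 6.14 and 7.47 in Apcmin tumours, 8.52 and 7.16 in iLIN28B tumours, and 6.20 in wt mucosa. The 2 Apcmin colon tumours were the highest arrays of all, and the 3 colon groups did not overlap. Among small intestinal tumours the iLIN28B Apcmin arrays lay above the Apcmin tumours, while the iLIN28B tumours overlapped both. From high to low the group means were ordered Apcmin colon tumours (9.44), iLIN28B Apcmin small intestinal tumours (8.61), iLIN28B small intestinal tumours (7.84), iLIN28B Apcmin colon tumours (7.55), Apcmin small intestinal tumours (6.80), wt small intestinal mucosa (6.20) and wt colon mucosa (6.00). The pooled SD within groups was 0.62. The gap between the iLIN28B small intestinal and iLIN28B Apcmin colon tumours and the gaps among the lowest 3 groups were smaller than that.

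Ascl2 (ILMN_2919900, chr7:142966822-142969264) had log2 intensities of 6.67, 7.57 and 7.25 in iLIN28B Apcmin colon tumours, 7.17 and 7.76 in Apcmin colon tumours, and 5.48 and 5.60 in wt colon mucosa. Both colon tumour groups lay above wt mucosa and overlapped each other. The small intestinal arrays had 6.32 and 6.89 in iLIN28B Apcmin tumours, 5.80 and 6.59 in Apcmin tumours, 5.59 and 6.61 in iLIN28B tumours, and 6.04 in wt mucosa. The small intestinal tumour groups overlapped one another and were all below the Apcmin colon tumours. Group means fell in the order Apcmin colon tumours (7.47), iLIN28B Apcmin colon tumours (7.16), iLIN28B Apcmin (6.60), Apcmin (6.19) and iLIN28B (6.10) small intestinal tumours, wt small intestinal mucosa and wt colon mucosa (5.54). With a pooled SD of 0.48, only the gaps after the second and before the last group exceeded the spread.

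Tnfrsf19 (ILMN_2793522, chr14:60963834-61046855) had log2 intensities of 9.38 and 8.75 in iLIN28B Apcmin colon tumours, 7.54 and 7.28 in Apcmin colon tumours, and 5.78 and 5.62 in wt colon mucosa. The third iLIN28B Apcmin colon tumour had a deposited signal of 11.6 on this probe, below the floor of 25, and the fit treated it as missing. Of the small intestinal groups, it had 8.62 and 8.95 in iLIN28B Apcmin tumours, 6.18 and 7.53 in Apcmin tumours, 7.74 and 5.46 in iLIN28B tumours, and 6.31 in wt mucosa. On the arrays that measured it, the iLIN28B Apcmin tumours were the highest group in each organ and did not overlap the Apcmin tumours. Over all genes, 17% in colon and 27.2% in small intestine lay above the Apcmin tumours in this way. The pair of iLIN28B small intestinal tumours differed widely, with an SD of 1.62. In the order of group means, the gap between iLIN28B Apcmin small intestinal tumours (8.78) and Apcmin colon tumours (7.41) was the only one above the pooled SD of 0.80.

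Mex3a (ILMN_3072957, chr3:88531946-88541394) had log2 intensities of 8.22, 8.75 and 8.50 in iLIN28B Apcmin colon tumours, 7.83 and 7.87 in Apcmin colon tumours, and 4.96 and 5.19 in wt colon mucosa. Mex3a values in the small intestine were 7.09 and 7.27 in iLIN28B Apcmin tumours, 5.07 and 5.99 in Apcmin tumours, 6.05 and 6.15 in iLIN28B tumours, and 5.05 in wt mucosa. The first 4 gaps in its order separated groups that did not overlap: iLIN28B Apcmin colon tumours, Apcmin colon tumours, iLIN28B Apcmin small intestinal tumours and iLIN28B small intestinal tumours followed each other downwards above the Apcmin small intestinal tumours. The Apcmin small intestinal tumours overlapped wt colon mucosa, and the wt small intestinal array lay between the 2 wt colon arrays and just below both Apcmin tumours. The pooled SD was 0.30.

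Olfm4 (ILMN_3161834, chr14:80000302-80023141) was not detected on any of the 7 colon arrays, where its log2 intensity stayed between 4.27 and 4.68. In the small intestine it had 8.81 and 5.84 in iLIN28B Apcmin tumours, 10.35 and 9.76 in Apcmin tumours, 9.22 and 8.45 in iLIN28B tumours, and 10.67 in wt mucosa. The single wt array was the highest and each Apcmin tumour exceeded each tumour that carried iLIN28B. The iLIN28B Apcmin pair was far apart, with an SD of 2.10 log2 units. The pooled SD was 0.84, and the gap between wt mucosa and Apcmin tumours was smaller than it.

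Cd44 (ILMN_3114585, chr2:102811141-102901669) was detected on all 14 arrays. Its log2 intensities were 8.98, 8.67 and 8.87 in iLIN28B Apcmin colon tumours, 9.0 and 8.97 in Apcmin colon tumours, and 8.27 and 8.14 in wt colon mucosa. Small intestinal intensities were 8.59 and 8.18 in iLIN28B Apcmin tumours, 9.17 and 8.76 in Apcmin tumours, 9.57 and 10.11 in iLIN28B tumours, and 8.73 in wt mucosa. The 2 iLIN28B small intestinal tumours were the highest arrays, and the wt colon mucosa group had the lowest mean. With a pooled SD of 0.23, only the gaps below the iLIN28B tumours (9.84) and below wt small intestinal mucosa (8.73) in the order exceeded the spread.

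Ephb3 (ILMN_1213216, chr16:21204620-21223309) was dim and was detected on 10 arrays. It had log2 intensities of 5.24, 5.11 and 5.95 in iLIN28B Apcmin colon tumours, 5.04 and 4.60 in Apcmin colon tumours, and 4.64 and 4.60 in wt colon mucosa, where neither array detected it. Its small intestinal values were 4.91 and 5.71 in iLIN28B Apcmin tumours, 4.77 and 5.02 in Apcmin tumours, 5.75 and 5.61 in iLIN28B tumours, and 4.75, undetected, in wt mucosa. All groups with iLIN28B overlapped one another, and the highest Apcmin tumour of either organ had 5.04. With a pooled SD of 0.35, the group order from iLIN28B small intestinal tumours (5.68) to wt colon mucosa held 1 gap above the spread, between iLIN28B Apcmin and Apcmin small intestinal tumours.

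**Figure D2:**
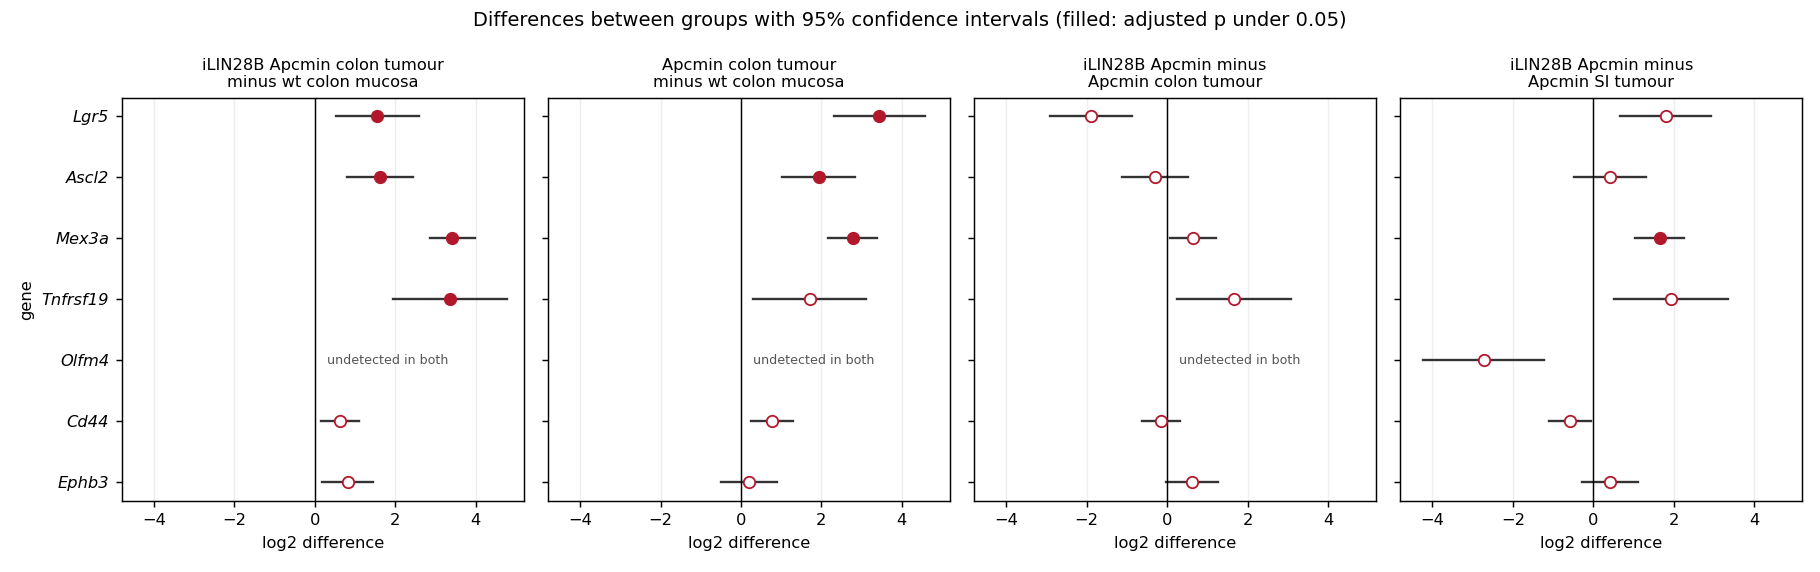
Each panel plots the log2 difference of the 7 genes in 1 comparison, with 95% confidence intervals from the fit. Filled points passed an adjusted p of 0.05. Mex3a lies right of 0 in the 4 comparisons shown, and Lgr5 lies right of 0 against wt colon mucosa but left of 0 between iLIN28B Apcmin and Apcmin colon tumours.

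The first comparison asked how iLIN28B Apcmin colon tumours differ from wt colon mucosa. Lgr5, Ascl2, Mex3a and Tnfrsf19 rose, 4 of the 7 genes, where 13.3% of all genes tested rose. Mex3a averaged 8.49 ± 0.27 in iLIN28B Apcmin colon tumours (SD, n = 3) and 5.07 ± 0.16 in wt colon mucosa (SD, n = 2), a 10.7-fold difference (limma, log2 difference 3.42 ± 0.26 SE, adjusted p = 1.24e-05). Tnfrsf19 averaged 9.07 ± 0.45 on its 2 measured tumours and 5.70 ± 0.11 in wt mucosa, 10.3-fold apart (limma, 3.36 ± 0.63, adjusted p = 0.00383). It lost its call when signals under 25 were kept, with a log2 difference of 1.77 (limma, adjusted p = 0.365).

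Ascl2 was 3.08-fold higher in these tumours than in wt mucosa (limma, 1.62 ± 0.37 SE, adjusted p = 0.00906) and Lgr5 was 2.93-fold higher (limma, 1.55 ± 0.47, adjusted p = 0.0323). Both are among the less stable calls. Ascl2 lost its call without wt colon mucosa replicate 1 or 2 (limma, adjusted p = 0.0742 and 0.0565). Lgr5 kept its call in 14 of 24 alternatives, and lost it without wt colon mucosa replicate 1 or 2, without iLIN28B Apcmin colon tumour replicate 1 or 3, and with the replicate number as a block, where its log2 difference was 1.26 (limma, adjusted p = 0.106). The remaining losses came with low signals kept, the authors' series values, no filter on dim probes, averaging by title number and all 16 arrays. Cd44 differed by 0.63 ± 0.22 (limma, adjusted p = 0.0555) and Ephb3 by 0.81 ± 0.29 (limma, adjusted p = 0.0618), and Olfm4 was undetected on both sides. For Lgr5, Ascl2, Mex3a, Cd44 and Ephb3 each of the 3 tumour arrays lay above both wt arrays, and for Tnfrsf19 the 2 measured ones did. Over all genes 30.1% were placed this way on the arrays that measured them. The Cd44 and Ephb3 calls are near the threshold: Cd44 passed with no background correction (limma, adjusted p = 0.0463) and Ephb3 with median scaling (limma, adjusted p = 0.0303).

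Apcmin colon tumours were set against the same 2 wt arrays, so the 2 comparisons are not independent. Lgr5, Ascl2 and Mex3a rose, 3 of the 7 genes, where 6.38% of all genes rose. Lgr5 averaged 9.44 ± 0.22 in Apcmin colon tumours and 6.00 ± 0.10 in wt colon mucosa (SD, n = 2 each), 10.9-fold apart (limma, 3.44 ± 0.51 SE, adjusted p = 0.00155). Mex3a was 6.85-fold higher (limma, 2.78 ± 0.28, adjusted p = 0.000171), and Ascl2 was 3.80-fold higher (limma, 1.93 ± 0.41, adjusted p = 0.0107). The Ascl2 call was lost without wt colon mucosa replicate 1, without wt colon mucosa replicate 2 or without Apcmin colon tumour replicate 2 (limma, adjusted p = 0.0816, 0.0637 and 0.103).

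Tnfrsf19 differed by 1.71 ± 0.63 log2 units between Apcmin colon tumours and wt mucosa (limma, adjusted p = 0.110), Cd44 by 0.77 ± 0.24 (limma, adjusted p = 0.0554) and Ephb3 by 0.20 (limma, adjusted p = 0.767). Tnfrsf19 passed the threshold when arrays with a shared title number were averaged (limma, adjusted p = 0.0329) and in 2 of 14 fits with a single array left out. Cd44 passed with no background correction (limma, adjusted p = 0.0455) and in 5 of 14 such fits. Olfm4 was undetected in Apcmin colon tumours too.

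Between iLIN28B Apcmin and Apcmin colon tumours none of the 7 genes passed the limma test by its brightest probe, where 1.2% of all genes changed, and 4 of the 14 member probes had an unadjusted p under 0.05, against 13.5% of all probes. Lgr5 averaged 7.55 ± 0.59 in iLIN28B Apcmin colon tumours (SD, n = 3) and 9.44 ± 0.22 in Apcmin colon tumours (SD, n = 2), a log2 difference of -1.89 with a 95% confidence interval of -2.92 to -0.86 (limma, adjusted p = 0.0910). The 3 iLIN28B Apcmin arrays were all below the 2 Apcmin arrays, as they were for 17% of all genes. The Lgr5 difference passed the threshold when Apcmin small intestinal tumour replicate 1 or 2, an array of neither group, was left out (limma, adjusted p = 0.0489 and 0.0492).

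Tnfrsf19 lay the other way, 1.66 log2 units higher in iLIN28B Apcmin colon tumours by its brightest probe (limma, adjusted p = 0.280). Its second probe, ILMN_2450817, had 6.44, 5.55 and 6.29 in iLIN28B Apcmin colon tumours, against 5.12 and 4.50 in Apcmin colon tumours, with a log2 difference of 1.28 ± 0.27 SE (limma, adjusted p = 0.0486, where 1.13% of all probes were called). Only 1 of the 2 Apcmin colon tumours detected this probe, and it passed the filter through colon tumours alone, so its difference is given as a description. The probe also measured the third iLIN28B Apcmin tumour, which the brightest probe missed. Ascl2 differed by -0.30 (limma, adjusted p = 0.809), Mex3a by 0.64 (adjusted p = 0.291) and Ephb3 by 0.62 (adjusted p = 0.389).

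In the small intestine, iLIN28B Apcmin tumours were set against Apcmin tumours. Mex3a rose, 1 of 7 genes, where 2% of all genes rose. It averaged 7.18 ± 0.13 in iLIN28B Apcmin tumours and 5.53 ± 0.65 in Apcmin tumours (SD, n = 2 each), 3.13-fold apart (limma, 1.65 ± 0.28 SE, adjusted p = 0.0143). Its call was lost without Apcmin small intestinal tumour replicate 1 (1.19, limma, adjusted p = 0.0523) or iLIN28B Apcmin small intestinal tumour replicate 2, the sample titled D Tum Muc (1.57, limma, adjusted p = 0.127).

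The other genes did not pass the test between these small intestinal tumours. Lgr5 was 8.61 ± 0.30 in iLIN28B Apcmin tumours and 6.80 ± 0.94 in Apcmin tumours (SD, n = 2 each), a log2 difference of 1.80 ± 0.51 SE (limma, adjusted p = 0.0684). Lgr5 passed without Apcmin small intestinal tumour replicate 2, at 2.47 (limma, adjusted p = 0.0201). Olfm4 was 7.33 ± 2.10 in iLIN28B Apcmin tumours and 10.05 ± 0.41 in Apcmin tumours, a difference of -2.73 ± 0.69 SE (limma, adjusted p = 0.0506). One array decides the size of this Olfm4 difference: it was -4.21 without iLIN28B Apcmin replicate 1 and -1.23 without replicate 2, the sample titled D Tum Muc. Each of these fits leaves 1 array in the group. The spread then comes from the other groups, among them the colon arrays at background. With the replicate number as a block the Olfm4 difference was -2.73 (limma, adjusted p = 0.0372). Tnfrsf19 differed by 1.93 ± 0.63 (limma, adjusted p = 0.106), and passed without Apcmin replicate 2, at 2.60 (adjusted p = 0.0494), or without either iLIN28B small intestinal tumour (adjusted p = 0.0347 and 0.0346). The differences were -0.58 for Cd44 (adjusted p = 0.174), 0.41 for Ascl2 (adjusted p = 0.595) and 0.42 for Ephb3 (adjusted p = 0.466).

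Small intestinal tumours of iLIN28B Apcmin mice were also set against tumours of iLIN28B mice, which were 8 months old and share a title number. Titles also give D for both iLIN28B Apcmin tumours, but D for 1 iLIN28B tumour and Jej for the other. Genotype, age, that number and the place in the gut cannot be told apart here. Cd44 fell, 1 of 7 genes, where 0.383% of all genes fell. It averaged 8.39 ± 0.29 in iLIN28B Apcmin tumours and 9.84 ± 0.38 in iLIN28B tumours (SD, n = 2 each), 2.73-fold lower (limma, -1.45 ± 0.24 SE, adjusted p = 0.0269). The call held in 15 of 24 alternatives and was lost when arrays sharing a title number were averaged (limma, adjusted p = 0.162) and without iLIN28B Apcmin small intestinal tumour replicate 2 (-1.24, limma, adjusted p = 0.210). Mex3a differed by 1.08 (limma, adjusted p = 0.108), Tnfrsf19 by 2.18 (adjusted p = 0.149), Olfm4 by -1.51 (adjusted p = 0.329) and Lgr5 by 0.76 (adjusted p = 0.528). Single arrays moved 3 of these past the threshold. Tnfrsf19 was 3.32 without iLIN28B replicate 1 and Olfm4 was -3.00 without iLIN28B Apcmin replicate 1, each a fit that leaves 1 array in the group. Mex3a passed at 1.08 without Apcmin small intestinal tumour replicate 1 or 2, arrays of neither group (limma, adjusted p = 0.0358 and 0.0365).

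None of the 7 genes passed the limma test between Apcmin small intestinal tumours and the single wt small intestinal array, where limma called 0.089% of all genes. Of the 14 member probes 0 had an unadjusted p under 0.05, against 2.34% of all probes. The differences were 0.60 for Lgr5, 0.15 for Ascl2, 0.48 for Mex3a, 0.55 for Tnfrsf19, 0.24 for Cd44, 0.15 for Ephb3 and -0.62 for Olfm4 on the log2 scale. The lone wt array was assumed to vary like the other groups.

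Between organs, Apcmin colon tumours were set against Apcmin small intestinal tumours. Lgr5 and Mex3a rose, 2 of 7 genes, where 10.2% of all genes rose, and Olfm4 fell, 1 of 7, where 8.95% fell. Lgr5 was 6.20-fold higher in the colon tumours (limma, 2.63 ± 0.51 SE, adjusted p = 0.00548) and Mex3a 5.0-fold higher (limma, 2.32 ± 0.28, adjusted p = 0.000326). Olfm4 was at least 37.8-fold lower in the colon tumours, where it was not detected. It passed the filter on dim probes only through small intestinal arrays. A difference between organs was thus built into its selection, and it is given as a description. The bound sets the small intestinal mean against the higher of each colon array's own value and its lowest detected signal. These 3 calls held in 23 of 24 alternatives. Ascl2 differed by 1.27 ± 0.41 (limma, adjusted p = 0.0516) and passed with the replicate number as a block (limma, adjusted p = 0.00511). Cd44 differed by 0.02, Ephb3 by -0.08 and Tnfrsf19 by 0.55.

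Both organs together gave the mean difference between iLIN28B Apcmin and Apcmin tumours. Mex3a and Tnfrsf19 rose, 2 of 7 genes, where 2.49% of all genes rose. Mex3a was 2.21-fold higher (limma, 1.15 ± 0.19 SE, adjusted p = 0.00913) and kept its call in 21 of 24 alternatives. Tnfrsf19 was 3.47-fold higher (limma, 1.79 ± 0.45, adjusted p = 0.0499) and kept it in 8 of 24, with a value between 1.45 and 2.13 when single arrays were left out. The mean difference was -0.04 for Lgr5, 0.05 for Ascl2, 0.52 for Ephb3, -0.36 for Cd44 and -1.32 for Olfm4. Olfm4 was undetected on every colon array, so its mean difference rests on the small intestine. It was -2.06 without iLIN28B Apcmin small intestinal tumour replicate 1, a fit that leaves 1 array in that group.

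The difference of the differences, colon minus small intestine, tested whether the 2 organs differ. No gene of the 7 passed, where 0.374% of all genes did, and 4 of the 14 member probes had an unadjusted p under 0.05 by limma, against 15.7% of all probes. Lgr5 came nearest: its difference was -1.89 in colon and 1.80 in small intestine, and the difference between organs was -3.69 ± 0.69 SE (limma, adjusted p = 0.0536). It passed under other normalisations, with adjusted p (limma) of 0.0402 with median scaling and 0.0397 with the authors' series values, and without Apcmin small intestinal tumour replicate 2, at -4.35 (limma, adjusted p = 0.0100). Mex3a had -1.01 (limma, adjusted p = 0.250), Olfm4 2.81 (adjusted p = 0.209) and Tnfrsf19 -0.27 (adjusted p = 0.908). Olfm4, at background in colon, passed at 4.30 without iLIN28B Apcmin small intestinal tumour replicate 1, and Mex3a at -1.48 without Apcmin small intestinal tumour replicate 2. Each of these fits leaves 1 array in the group.

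**Figure D3:**
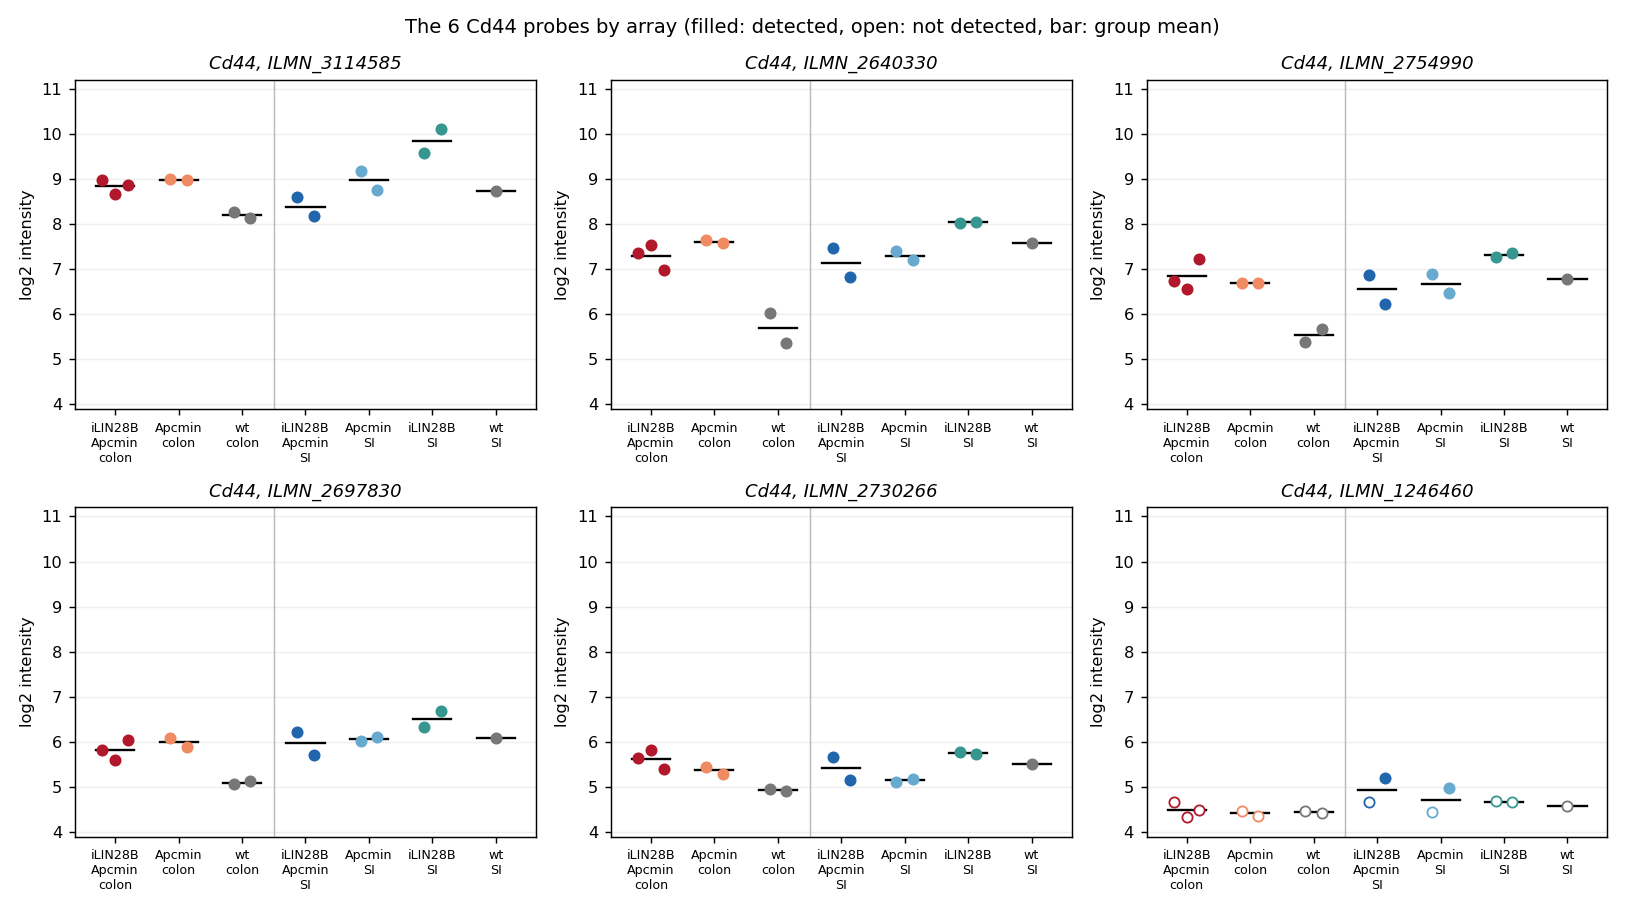
Each panel plots 1 of the 6 Cd44 probes, with log2 normalised intensity on the vertical axis and the 7 groups on the horizontal axis (SI, small intestine). Points are arrays, open where the probe was not detected, and bars are group means. All but 1 probe were detected on all 14 arrays, and ILMN_1246460 stayed at background on 12 of them.

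The 6 Cd44 probes did not give the same answer in every comparison. The brightest, ILMN_3114585, is annotated to a transcript record of its own, and the other 5 share another. Over 14 arrays the 4 others detected throughout correlated with it at Pearson r of 0.77, 0.80, 0.81 and 0.59, and ILMN_1246460, detected on 2 arrays, at -0.09. In iLIN28B Apcmin colon tumours against wt mucosa the brightest did not pass, while ILMN_2640330 rose by 1.59 (limma, adjusted p = 0.00115), ILMN_2754990 by 1.31 (adjusted p = 0.00352), ILMN_2697830 by 0.72 (adjusted p = 0.0266) and ILMN_2730266 by 0.68 (adjusted p = 0.0241). These are 4 Cd44 probes called where 25.4% of all probes changed in either direction. In Apcmin colon tumours against wt mucosa ILMN_2640330 rose by 1.92 (limma, adjusted p = 0.00143), ILMN_2697830 by 0.89 (adjusted p = 0.0262) and ILMN_2754990 by 1.15 (adjusted p = 0.0197), where 12.9% of all probes changed. The fall of Cd44 in iLIN28B Apcmin against iLIN28B small intestinal tumours was called by the brightest probe alone: the 4 others had differences between -0.90 and -0.34 and adjusted p (limma) between 0.161 and 0.488.

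Second probes of Mex3a and Tnfrsf19 were dimmer. Among the arrays used, ILMN_3151736 of Mex3a was detected only on the 5 colon tumour arrays, with 5.11, 4.98 and 4.98 in iLIN28B Apcmin and 4.91 and 4.91 in Apcmin tumours. ILMN_2450817 of Tnfrsf19 was detected on 4 arrays, the 3 iLIN28B Apcmin colon tumours and 1 Apcmin colon tumour. Both passed the filter only through colon tumours, so a difference from the other groups was built into their selection. That difference is not counted as support, but the counts of member probes given above include both probes. Neither probe was detected in wt colon mucosa. As a description, iLIN28B Apcmin colon tumours were at least 1.24-fold higher than wt on the Mex3a probe and at least 2.61-fold higher on the Tnfrsf19 probe.

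Promoter sequence was read for the members because a TCF site or an E-box near the start is where beta-catenin or a helix-loop-helix factor such as ASCL2 could bind. RefSeq windows (GRCm38.p6, 250 bases before to 50 after each start) were matched for Ascl2, Cd44, Ephb3, Mex3a, Olfm4 and Tnfrsf19, which has 2 starts. They were searched on both strands for the TCF core CTTTGA and the E-box CAGCTG, which do not overlap. Of the 7 windows 1 held CTTTGA, against 16% of 32851 promoters, and 2 held CAGCTG, against 16.3%. The windows that follow, those with a match and those of 2 members that rose in both kinds of colon tumour, have the motif matches in capitals: Tnfrsf19 at chr14:61037938-61038237 on the minus strand, Ephb3 at chr16:21204545-21204844 on the plus strand, Mex3a at chr3:88531696-88531995 on the plus strand and Ascl2 at chr7:142969215-142969514 on the minus strand.
Tnfrsf19: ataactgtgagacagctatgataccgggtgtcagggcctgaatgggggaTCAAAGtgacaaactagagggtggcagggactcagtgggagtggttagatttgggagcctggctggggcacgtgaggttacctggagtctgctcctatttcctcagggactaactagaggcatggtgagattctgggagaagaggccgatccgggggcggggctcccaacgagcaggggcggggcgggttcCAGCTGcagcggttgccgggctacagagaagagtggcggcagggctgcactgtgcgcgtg
Ephb3: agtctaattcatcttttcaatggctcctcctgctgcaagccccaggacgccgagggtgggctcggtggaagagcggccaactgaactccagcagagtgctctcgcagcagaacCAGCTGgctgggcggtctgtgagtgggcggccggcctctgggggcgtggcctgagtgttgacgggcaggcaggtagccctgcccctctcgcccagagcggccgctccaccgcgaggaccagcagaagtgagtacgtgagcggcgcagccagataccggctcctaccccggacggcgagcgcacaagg
Mex3a: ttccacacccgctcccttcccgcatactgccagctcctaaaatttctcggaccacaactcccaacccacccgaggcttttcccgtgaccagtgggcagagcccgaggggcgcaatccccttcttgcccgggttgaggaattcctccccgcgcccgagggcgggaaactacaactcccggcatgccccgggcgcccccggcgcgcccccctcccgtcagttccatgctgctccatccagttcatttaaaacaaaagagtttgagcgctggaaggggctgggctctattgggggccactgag
Ascl2: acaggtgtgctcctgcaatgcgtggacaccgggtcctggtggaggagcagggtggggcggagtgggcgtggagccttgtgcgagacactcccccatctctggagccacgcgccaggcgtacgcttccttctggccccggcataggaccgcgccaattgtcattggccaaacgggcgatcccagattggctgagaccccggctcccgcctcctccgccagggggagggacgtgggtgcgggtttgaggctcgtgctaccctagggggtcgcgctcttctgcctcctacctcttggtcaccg

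The Tnfrsf19 window held TCAAAG, which is CTTTGA on the other strand, 201 bases before the start, and CAGCTG 10 bases before it. The Ephb3 window held CAGCTG 137 bases before the start. Neither Mex3a nor Ascl2 held either motif, which says only that these letters are not in these windows, and a match is a description of the letters, not of binding.

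**Figure D4:**
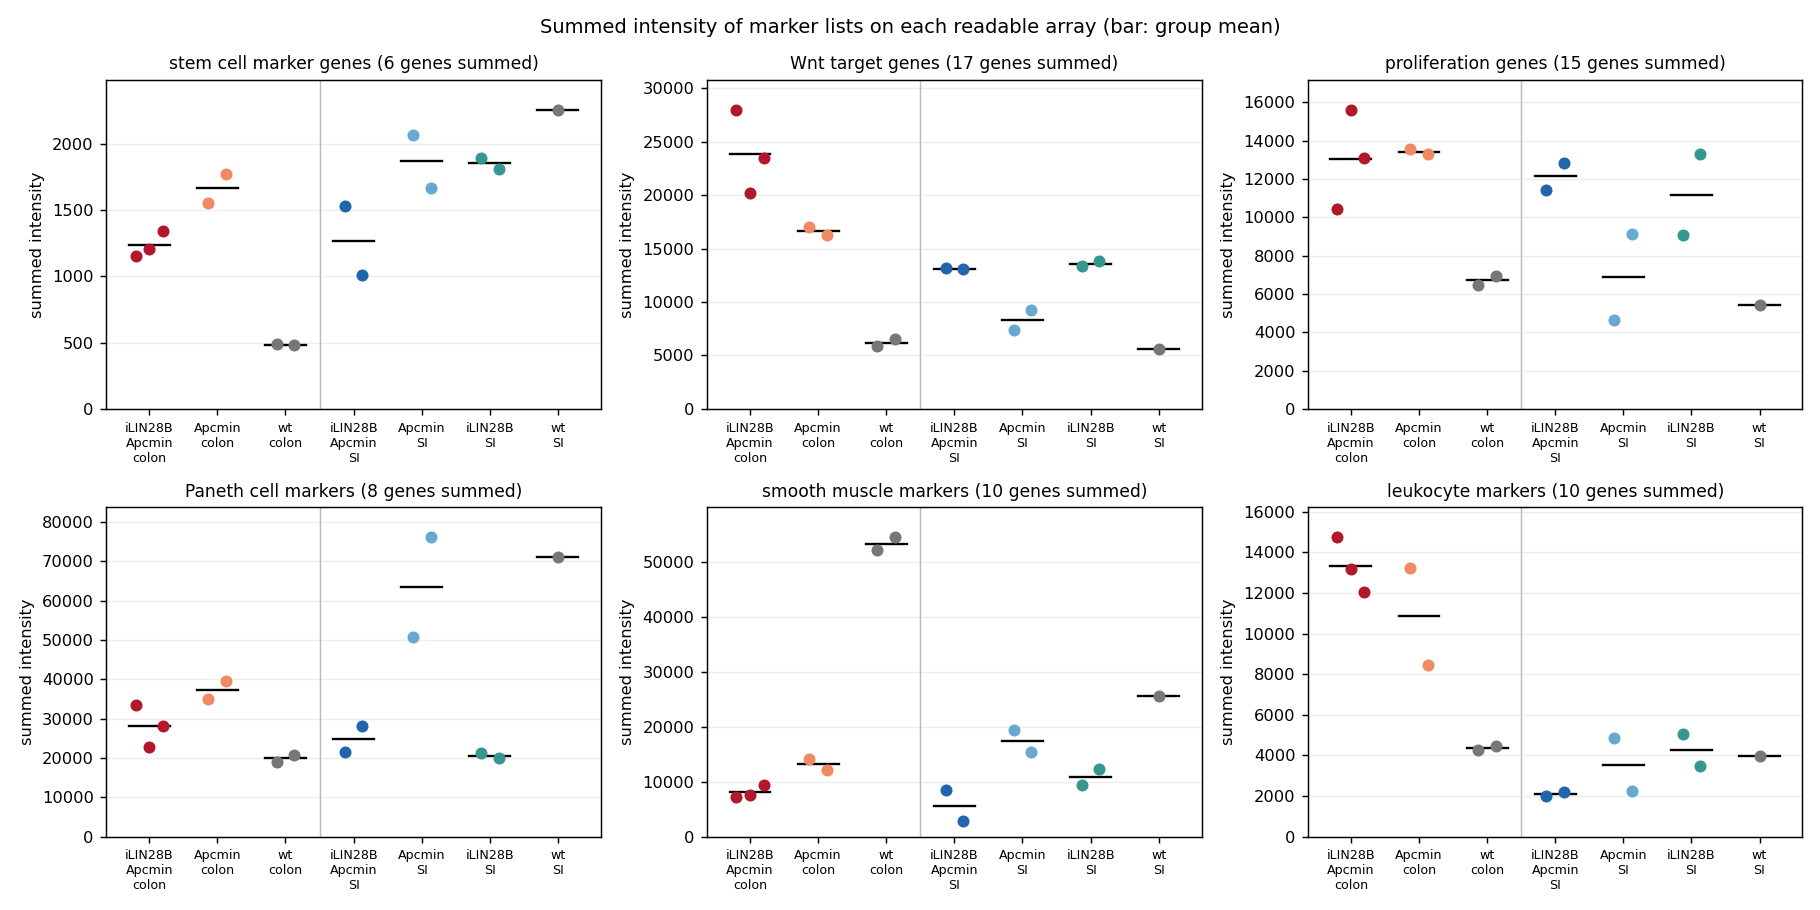
Each panel plots the summed normalised intensity (linear scale) of 1 gene list, with arrays as points, group means as bars and the groups on the horizontal axis (SI, small intestine). The lists are 6 of the stem cell markers (without Tnfrsf19, missing on 1 array), Wnt targets, proliferation genes, and Paneth, smooth muscle and leukocyte markers. Smooth muscle markers lie highest in wt colon mucosa, and Wnt targets lie higher in the colon tumours than in wt colon mucosa.

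Other genes of the pathway gave the setting for these values. Of 24 listed Wnt target genes 18 were tested. In iLIN28B Apcmin colon tumours against wt mucosa 12 rose and none fell, where 13.3% of all genes rose and 14% fell. Their median log2 difference was 1.36 against 0.04 over all genes. Between 8 and 14 rose over the alternatives on readable arrays. The largest rises were Prox1 at 6.18 (limma, adjusted p = 0.000141), a homeobox transcription factor, Notum at 6.05 (adjusted p = 0.000143), a secreted enzyme that inactivates Wnt, and Apcdd1 at 5.58 (adjusted p = 8.25e-05), a membrane inhibitor of Wnt. In Apcmin colon tumours against wt mucosa 9 of the 18 rose and none fell, where 6.38% of all genes rose and 7.66% fell. The median was 1.29 against 0.02, and the rises were led by Notum at 5.42, Prox1 at 5.04 and Wif1, a secreted Wnt inhibitor, at 4.95. In the small intestine, iLIN28B Apcmin against Apcmin tumours, 1 of the 18 rose, where 2% of all genes rose: Notum at 3.15 (limma, adjusted p = 0.0437).

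Other genes linked to crypt stem cells did not move as a block. Of 18 tested, 4 rose and 5 fell in iLIN28B Apcmin colon tumours against wt mucosa, where 13.3% of all genes rose and 14% fell, with a median of 0.03 against 0.04 over all genes. Scn2b, a sodium channel subunit, rose by 2.78 (limma, adjusted p = 0.00048), Igfbp4, which binds insulin-like growth factors, rose by 1.65 (adjusted p = 0.0280), and Bmi1, a Polycomb protein, rose by 0.95 (adjusted p = 0.00582). Vdr, the vitamin D receptor, fell by 4.36 (adjusted p = 0.00152), Aqp4, a water channel, by 2.32 (adjusted p = 0.00725) and Prelp, a matrix protein, by 2.12 (adjusted p = 0.00168). In Apcmin colon tumours against wt mucosa 3 rose and 1 fell, where 6.38% of all genes rose and 7.66% fell. Between iLIN28B Apcmin and Apcmin colon tumours none of the 18 passed.

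Receptors and ligands around the members were mixed in iLIN28B Apcmin colon tumours against wt mucosa, where 13.3% of all genes rose and 14% fell. Of 11 R-spondin and Wnt ligand or receptor genes tested, 4 rose and 1 fell in iLIN28B Apcmin colon tumours against wt mucosa: Wnt6 rose by 3.08, Wnt5a by 1.24 and the receptor Fzd6 by 1.22, and Rspo3, an LGR5 ligand, fell by 2.22. Of 11 Eph receptors and ephrins besides Ephb3, 3 rose (Efna4, Epha2 and Ephb6) and 5 fell, led by Epha1 at -2.01. Of 10 Notch pathway genes 2 rose, Hes6 by 1.93 and the receptor Notch1 by 1.05, and none fell, a share of rises near that of all genes. The same comparison for proliferation genes gave 8 rises and no fall of 17, with Mcm5 of the replicative helicase at 1.34. That count ranged from 1 to 11 over the alternatives on readable arrays.

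Genes of regenerating and fetal epithelium were tested as a list of 10. In iLIN28B Apcmin colon tumours against wt mucosa 5 rose, where 13.3% of all genes rose. They included Clu at 2.68, a secreted chaperone, and Il33 at 2.99, a cytokine. In Apcmin colon tumours against wt mucosa 4 rose, with Clu at 4.16, where 6.38% of all genes rose. Between iLIN28B Apcmin and Apcmin colon tumours 2 fell, where 0.695% of all genes fell. These were Clu at -1.48 (limma, adjusted p = 0.0297) and Ccn2, a matricellular protein, at -1.16 (adjusted p = 0.0402). Between iLIN28B Apcmin and Apcmin small intestinal tumours 1 rose, Ccn2 at 1.02 (limma, adjusted p = 0.0481), where 2% of all genes rose.

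Markers of other cell types moved with the comparisons against mucosa. The summed intensity of 10 smooth muscle markers (of 11 listed) ranged from 7246 to 9422 in iLIN28B Apcmin colon tumours, 12189 to 14117 in Apcmin colon tumours and 52194 to 54508 in wt colon mucosa, and 10 of 10 fell in iLIN28B Apcmin colon tumours, where 14% of all genes fell. Of 13 colonocyte markers 11 fell there, and of 8 goblet cell markers 8 fell. Of 8 Paneth cell markers 6 rose and 1 fell, where 13.3% of all genes rose. Of 11 epithelial markers none rose and 4 fell. Of 10 leukocyte markers 3 rose and none fell, with sums of 12022 to 14736 in iLIN28B Apcmin colon tumours, 8464 to 13215 in Apcmin colon tumours and 4254 to 4460 in wt colon mucosa. The leukocyte rises were unequal, with S100a8 at 7.14, Lcp1 at 1.20 and Cd53 at 0.87, while Cd3e (-0.37) and Cd79a (-0.72) lay lower and were not called. Of 3 red blood cell markers 3 rose, with sums of 10483 to 21794 in iLIN28B Apcmin colon tumours, 6396 to 9195 in Apcmin colon tumours and 468 to 1433 in wt colon mucosa. Of 4 exocrine pancreas markers 3 fell, with sums of 888 to 1062 in iLIN28B Apcmin colon tumours, 3422 to 6793 in Apcmin colon tumours and 14071 to 14820 in wt colon mucosa. Of 11 fibroblast and matrix markers 1 rose and 2 fell, and of 8 small intestinal enterocyte markers 1 fell. The part of these markers in the rise of Lgr5, Ascl2, Mex3a and Tnfrsf19 was not tested.

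In the small intestine the smooth muscle sums were 2809 to 8506 in iLIN28B Apcmin tumours, 15335 to 19339 in Apcmin tumours, 9431 to 12396 in iLIN28B tumours and 25590 in wt mucosa, and 6 of 10 fell in iLIN28B Apcmin against Apcmin tumours, where 2.4% of all genes fell. Paneth cell markers summed to 21584 to 28050 in iLIN28B Apcmin tumours, 50770 to 76083 in Apcmin tumours, 20061 to 21198 in iLIN28B tumours and 70965 in wt mucosa. Of these 8 markers 3 fell in iLIN28B Apcmin against Apcmin tumours. Proliferation genes had a median difference of 0.80 there with 0 of 17 called, and between 0 and 10 called over the alternatives on readable arrays. Their part in the rise of Mex3a was not tested.

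Likeness of pattern was described by Pearson's r of log2 intensity over the 14 arrays, among 8928 genes detected on at least 7 arrays. The arrays share groups and normalisation, so r carries no test. Lgr5 was nearest to Cdca7 (0.90), Aif1l (0.84) and Cct6a (0.84), and Ascl2 to N4bp3 (0.92), Kansl2 (0.90) and Pex26 (0.90). Mex3a was nearest to Snn (0.98), Vangl2 (0.97) and Ier3 (0.97), and Olfm4 to Spg20 (0.97), Aldh18a1 (0.96) and Cdk11b (0.96). These last 3 follow a gene that is at background on 7 arrays.

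Tnfrsf19, over the 13 arrays that measured it, was nearest to Ptbp3 (0.92), Fetub (0.92) and Apoc4 (0.89). Cd44 was nearest to Prss27 (0.87), Gpx1 (0.87) and Hsph1 (0.82), and Ephb3 to Eef1aknmt (0.93), Trmt10c (0.90) and Heatr3 (0.90). Among the members themselves Ascl2 and Mex3a were most alike (0.86), followed by Mex3a and Tnfrsf19 (0.79), Lgr5 and Mex3a (0.65) and Lgr5 and Ascl2 (0.60). Olfm4 and Mex3a had r of -0.56.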

How the data were processed

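Total RNA was hybridised as biotinylated cRNA to Illumina mouse bead arrays, 16 arrays in 7 groups, per the labels. The deposited values are intensities per probe with a detection p-value, as the authors deposited them, neither background subtracted nor normalised by their values. The authors' series table is a straight-line transform of the same intensities on each array, by a method not given in the sources used here. Of 25697 probes, 23978 name 1 gene, and 2 blank lines were left out. Arrays with under 20% of probes detected at p under 0.05 were left out, and signals under 25 were treated as missing. Intensities were background corrected by detection p (normexp, offset 16), logged to base 2 and quantile normalised with limma 3.58.1 in R 4.3.3. The 15495 probes detected on at least 2 arrays were fitted on 7 group means with no block (lmFit and eBayes, 7 residual degrees of freedom), and p-values were adjusted by Benjamini-Hochberg over all of them in each of 9 comparisons. A call is an adjusted p under 0.05. "Detected" means a detection p under 0.05.

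The members, gene lists and tests were chosen with earlier results of these data known. Every member probe is reported, a list names at most its 3 largest called rises and falls, and likeness names the 3 nearest genes. The replicate numbers in the labels were not used to pair samples, and 5 of 30 same-numbered pairs correlated above 0.1. Between groups of 2 arrays both pairs had the same r. The pairs are thus not separate observations, and the check cannot show whether samples were paired. Alternatives covered all 16 arrays, low signals, background correction, scaling, the authors' series values, the probe filter, 2 kinds of block, averaging by title number and each array left out. The test was checked on simulated data. Arrays give no counts, so their number limits the precision. Promoters came from RefSeq.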

Additional observations from a re-analysis of the deposited data

Results flagged for a closer look

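Among the 4 iLIN28B Apcmin colon tumour arrays, replicate 4 lay far from the others in the share of probes detected, 12.0% against 48.3% to 55.7%. The array was left out by this same share, so its distance is given as a description and not as a test.

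For 6 genes of the lists the difference between iLIN28B Apcmin and Apcmin tumours was not the same in the 2 organs, by limma's test of the colon difference minus the small intestinal difference. Over all 11230 genes tested, 42 (0.374%) passed this test. Cdca7, a gene of the crypt stem cell list, had -0.99 in colon and 0.94 in small intestine, and the difference between organs was -1.93 ± 0.34 SE (limma, adjusted p = 0.0464, kept in 8 of 24 alternatives). Ccn2 had -1.16 in colon and 1.02 in small intestine, and the difference between organs was -2.18 ± 0.34 (limma, adjusted p = 0.0280, kept in 14 of 24). Clu had -1.48 in colon and 0.95 in small intestine, and the difference between organs was -2.43 ± 0.38 (limma, adjusted p = 0.0280, kept in 12 of 24). Among the colonocyte markers, Tgm3 had -2.45 in colon and -0.036 in small intestine, and the difference between organs was -2.41 ± 0.28 (limma, adjusted p = 0.00760, kept in 20 of 24). Aqp8 had -2.34 in colon and 0.76 in small intestine, and the difference between organs was -3.10 ± 0.53 (limma, adjusted p = 0.0405, kept in 13 of 24). The exocrine pancreas marker Cela1 had -1.61 in colon and 1.40 in small intestine, and the difference between organs was -3.01 ± 0.53 (limma, adjusted p = 0.0464, kept in 9 of 24). None of the 6 turned sign in any of the 24 alternatives.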

How the results depend on the processing

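The 60 member results were recomputed under 24 alternatives, which gave 1433 values. Of these 1288 kept direction and side of the threshold, 56 lost a call, 56 gained one and 33 turned sign, none of the last with a call on either side. With all 16 arrays and low signals kept, none of the 14 called member results passed, and the number of called member genes was 0 in each of the 6 comparisons that had any. Sign turned there for Cd44 in iLIN28B Apcmin colon tumours against wt mucosa (-0.28), for Mex3a (-0.29) and Tnfrsf19 (-0.61) in iLIN28B Apcmin against Apcmin colon tumours, for Olfm4 in Apcmin small intestinal tumours against wt (0.98), for Ascl2 in the mean of both organs (-0.22) and for Cd44 in the difference between organs (-0.45). Elsewhere sign turned for Cd44 in Apcmin colon against small intestinal tumours (-0.066 with median scaling, -0.088 with the authors' series values), for Lgr5 in the mean of both organs (0.0099 with median scaling) and for Ephb3 in the difference between organs (-0.058 with the replicate block). With low signals kept on 14 arrays, the called member genes numbered 2 in iLIN28B Apcmin colon tumours against wt mucosa, 0 in iLIN28B Apcmin against iLIN28B small intestinal tumours and 1 in the mean of both organs. In iLIN28B Apcmin against Apcmin small intestinal tumours 2 genes were called with no background correction, median scaling, the authors' series values, the title number as a random block or the replicate block. In the difference between organs 1 was called with no background correction, median scaling, the authors' series values or the random block. In the mean of both organs 1 was called with median scaling, no filter on dim probes or the replicate block, and 0 with arrays sharing a title number averaged, which also gave 0 in iLIN28B Apcmin against iLIN28B small intestinal tumours. The replicate block changed Lgr5 in iLIN28B Apcmin colon tumours against wt mucosa to 1.26 (limma, adjusted p = 0.106).
Leaving out single arrays gave 2 to 6 called member genes in iLIN28B Apcmin colon tumours and 2 to 5 in Apcmin colon tumours against wt mucosa, 0 to 1 between these tumours, 0 to 3 in iLIN28B Apcmin against Apcmin and 0 to 2 against iLIN28B small intestinal tumours, 0 in Apcmin small intestinal tumours against wt, 3 to 4 between Apcmin tumours of the 2 organs, 0 to 2 in the mean of both and 0 to 2 in their difference. Sign turned within these ranges: Ephb3 in Apcmin colon tumours against wt mucosa (-0.023 to 0.41), Ascl2 (-0.0052 to 1.01) and Ephb3 (-0.79 to 0.036) in iLIN28B Apcmin against iLIN28B small intestinal tumours, Ascl2 (-0.24 to 0.55), Lgr5 (-0.066 to 1.27) and Tnfrsf19 (-0.12 to 1.22) in Apcmin small intestinal tumours against wt, Cd44 (-0.19 to 0.22), Ephb3 (-0.29 to 0.14) and Tnfrsf19 (-0.12 to 1.23) between Apcmin tumours of the 2 organs, Ascl2 (-0.14 to 0.25) and Lgr5 (-0.38 to 0.29) in the mean of both, and Ephb3 (-0.20 to 0.62) and Tnfrsf19 (-0.95 to 0.40) in their difference. Over all probes the calls moved too: 3938 in iLIN28B Apcmin colon tumours against wt mucosa became 101 to 4213 over the settings and 1659 to 4162 with single arrays left out. The same numbers were 2006, 0 to 2533 and 670 to 2311 for Apcmin colon tumours against wt mucosa, 175, 0 to 219 and 5 to 235 between these tumours, 646, 0 to 1337 and 44 to 1678 in iLIN28B Apcmin against Apcmin and 113, 0 to 276 and 16 to 654 against iLIN28B small intestinal tumours. They were 11, 0 to 32 and 7 to 77 in Apcmin small intestinal tumours against wt, 2834, 41 to 3491 and 1073 to 3059 between organs, 775, 0 to 918 and 119 to 1471 in the mean of both, and 53, 0 to 75 and 5 to 449 in the difference. The cause was not tested. The small number of arrays per group and dim probes, with signals near background for Ephb3 and for Olfm4 in colon, limit what can be shown.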
